A study of Rattus norvegicus with 12 samples.

Results

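The comparison set 3 RNA samples from rat tail tendon fascicles held under cyclic tensile strain for 1 h against 3 samples from fascicles left unstrained for 1 h. Its members were chosen by sample title, and they make up 6 of the 12 samples of the series. The other 6 samples, 3 strained for 24 h and 3 unstrained for 24 h, entered the model only to share its estimate of spread and to test whether a strain effect differed between the times. Each sample was measured on 1 Illumina bead array. Total RNA came from fascicles kept outside the animal, and the sources used here state neither the animals' strain, age or sex nor the amplitude, frequency or medium of loading. The titles number the samples of each group 1 to 3, without saying whether they came from separate animals or cultures, so a p-value here is set only against the scatter of these samples, part or all of which may be technical.

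A fascicle is a thin bundle of collagen fibres that can be pulled out of a rat tail tendon with its cells still in place. Those cells, mostly tenocytes, lie in rows between the fibres, attach to the collagen and respond to load. The first transcripts to change after a mechanical, hormonal or growth factor stimulus are usually those of immediate early genes, which need no new protein synthesis. Many of them encode transcription factors of the AP-1, EGR, KLF and NR4A families, followed by feedback inhibitors of the same signalling pathways. Matrix genes of tendon, such as the fibrillar collagens, generally respond later.

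The values were the authors' normalized intensities, compared on the log2 scale, where a difference of 1 is a doubling. Every array had a median of 57.0 on the intensity scale, and the lowest value was 33.7, so differences of dim probes are smaller than the change in their transcripts. Differences are strained minus unstrained, and errors are standard errors of the limma fit without a block unless stated. Tenocyte markers were bright on all 6 arrays. Dcn, the collagen-binding proteoglycan decorin, had 10810, 11930 and 10810 in strained fascicles and 11066, 10294 and 10294 in unstrained fascicles. Tnmd, the tendon membrane protein tenomodulin, lay between 3014 and 5803 in strained and between 2373 and 5189 in unstrained fascicles. Of 13 tenocyte markers, 8 passed the filter on dim probes, Chodl was too dim, and Scx, Mkx, Comp and Tnc were not among the named probes. Markers of endothelium were mostly dim, with 8 of the 12 on the array below the filter, as were 7 of 11 markers of skeletal muscle.

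Strained and unstrained arrays of the same number tended to be more alike than other arrays of 1 h. Over the kept probes, log2 intensities correlated at 0.980 to 0.988 between the 2 arrays of a number at 1 h, and at 0.965 to 0.979 between 2 arrays of a group. Between strained and unstrained arrays of different numbers they correlated at 0.958 to 0.980, and the top of that range met the lowest value within a number. The number was also fitted as a block, separately from the fit without it. Without the block, limma called 0 of 11258 probes (0%) at a Benjamini-Hochberg adjusted p under 0.05, with 552 probes at an unadjusted p under 0.05. With the replicate block at 1 h, limma called 12 probes (0.107%). Of these, 10 were higher (0.0888%) and 2 lower (0.0178%) in strained fascicles. In the text below, "rose" and "fell" are used only of these probes, and each such statement depends on the block. A block within each time called 23 probes, and a block on the 6 arrays of 1 h alone called 32. Where these 2 forms turn the call of a gene described here, their adjusted p is given beside it. A block shared by both times called 0 probes, so none of the 12 was kept with it. With 3 samples a group, the smallest p an exact permutation test of 1 gene could give is 0.1, and the smallest of an exact sign test over 3 pairs is 0.25.

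**Figure D1:**
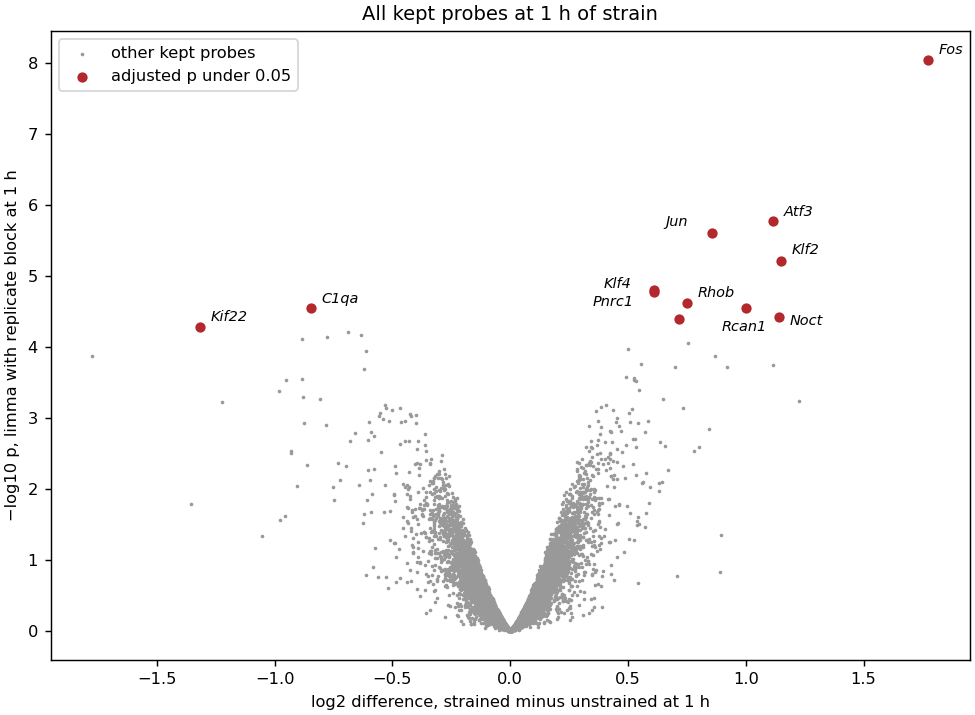
Each point is 1 of 11258 kept probes, with its log2 difference (strained minus unstrained at 1 h) on the x axis and the −log10 of its unadjusted p from limma with the replicate block on the y axis. The 12 red points had an adjusted p under 0.05, with Fos alone at the upper right and C1qa and Kif22 at the left; 1 red point has no gene name.

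Genes of the AP-1 transcription factor rose at 1 h of strain. Fos, whose protein pairs with Jun proteins to form AP-1, had intensities of 535, 1099 and 1787 in strained fascicles and 198, 245 and 542 in unstrained fascicles of replicates 1, 2 and 3. Each strained sample lay above its own numbered partner, but the groups overlapped, because strained replicate 1 lay below unstrained replicate 3. The differences within numbers were 1.43, 2.16 and 1.72, and their mean of 1.77 is a 3.42-fold rise. The standard error was 0.39 without the block and 0.12 with it (adjusted p = 0.537 without the block and 1.01e-04 with it, limma). Fos was the only one of the 11258 kept probes at least 2-fold higher in all 3 pairs, and 0 were at least 2-fold lower in all 3.

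Jun, whose protein binds that of Fos, had 229, 200 and 294 in strained fascicles and 136, 102 and 163 in unstrained fascicles. The groups did not overlap. Its differences within numbers were close to each other, at 0.75, 0.96 and 0.85, and averaged 0.86 ± 0.17 (adjusted p = 0.00923 with the block, limma). Atf3, a stress-induced factor of the same bZIP family, had 230, 234 and 316 in strained fascicles and 142, 96.9 and 121 in unstrained fascicles. These groups did not overlap either. Atf3 rose by 1.12 ± 0.15, with 0.69, 1.27 and 1.38 in the 3 pairs (adjusted p = 0.0768 without the block and 0.00923 with it, limma).

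Of 16 AP-1 subunits and partners listed, 10 were kept, and 9 of these lay above 0. All 3 calls were higher. The median difference of the list was 0.26, and 0.39, 0.21 and 0.42 in pairs 1, 2 and 3, beside a median of -0.00 over all 7780 kept genes, of which 49.3% lay above 0. The small Maf protein gene Maff, a bZIP partner without an activation domain, had 70.2, 81.1 and 93.9 in strained fascicles and 56.5, 53.7 and 57.9 in unstrained fascicles. Its groups did not overlap, and its difference of 0.53 ± 0.11 did not pass (adjusted p = 0.104 with the block, limma).

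Of the 6 kept Krüppel-like factors among the genes listed, zinc finger regulators of growth and differentiation, Klf2 and Klf4 rose. Klf2, known in endothelium as a gene induced by fluid shear, had 162, 217 and 531 in strained fascicles and 88.4, 109 and 177 in unstrained fascicles. Strained replicate 1 lay below unstrained replicate 3, so the groups overlapped, while the pairs differed by 0.87, 0.99 and 1.58 (mean 1.15; adjusted p = 0.0173 with the block, limma). Klf4, a regulator of differentiation, had 1809, 1973 and 3859 in strained fascicles and 1223, 1393 and 2276 in unstrained fascicles. Replicate 3 was again the highest of both groups, and the differences of 0.56, 0.50 and 0.76 were alike (mean 0.61; adjusted p = 0.0309 with the block and 0.0513 with the 6 arrays alone and the block, limma). Klf6, an injury-response member of the family, stood at 1677, 1557 and 1825 in strained fascicles and at 1227, 842 and 1074 in unstrained fascicles. Its groups did not overlap, but its difference of 0.70 ± 0.15 did not pass (adjusted p = 0.0869 with the block and 0.0405 with the 6 arrays alone and the block, limma). Klf10, Klf5 and Klf9 had 0.29, 0.10 and -0.11, each with pairs of both signs.

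Of the 22 EGR, KLF, NR4A and other early transcription factors listed, 17 were kept, and 15 of them lay above 0. The median was 0.55, and 0.55, 0.50 and 0.37 in the 3 pairs, the highest of the 39 lists described. In 11 of the 17 the strained array was higher in every pair, beside 15.1% of all kept probes. In 6 of the 17 all strained arrays lay above all unstrained arrays, beside 3.91% of all kept probes. Nr4a3, an orphan nuclear receptor induced within the first hour of many stimuli, had 115, 160 and 282 in strained fascicles and 85.6, 97.8 and 101 in unstrained fascicles. Egr2, a zinc finger factor with a role in tendon differentiation in the mouse, had 1030.2, 1040.4 and 1388 in strained fascicles and 525, 581 and 919 in unstrained fascicles. In both genes the groups were apart, and neither passed, at differences of 0.87 ± 0.23 and 0.80 ± 0.25 (adjusted p = 0.0717 and 0.280 with the block, limma). With the 6 arrays alone and the block, Egr2 had an adjusted p of 0.0184.

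Egr1, a load-responsive factor that drives collagen genes in tendon of the mouse, did not follow this pattern. It had 2868, 2887 and 2360 in strained fascicles and 1473, 2784 and 3136 in unstrained fascicles. The difference within numbers was 0.96 in pair 1, 0.05 in pair 2 and -0.41 in pair 3. The mean of 0.20 ± 0.41 had an adjusted p of 0.937 with the block (limma), and its sign turned without unstrained replicate 1 (-0.13) and without pair 1 (-0.18).

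Rcan1 and Rhob, listed with calcium, calcineurin and small GTPase feedback, rose beside the transcription factors. Rcan1 encodes an inhibitor of calcineurin, the calcium-activated phosphatase that switches on NFAT factors. It had 464, 325 and 650.0 in strained fascicles and 238, 193 and 265 in unstrained fascicles, without overlap. The pairs differed by 0.97, 0.75 and 1.29, a mean of 1.00 ± 0.22 (adjusted p = 0.0356 with the block, limma). Rhob, an endosomal small GTPase and itself an early response gene, had 564, 611 and 1045 in strained fascicles and 317, 383 and 625 in unstrained fascicles. Its groups overlapped, with differences of 0.83, 0.67 and 0.74 within numbers (mean 0.75; adjusted p = 0.0356 with the block, limma). These were the only calls among the 14 kept genes of calcium, calcineurin and small GTPase feedback, whose median was 0.09, with 9 above 0. Gem, a GTPase that blocks voltage-gated calcium channels, had 118, 130 and 157 in strained and 67.2, 112 and 107 in unstrained fascicles, apart but not past the test at 0.53 ± 0.27.

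Among genes of other roles, Noct, Pnrc1 and 1 unnamed probe rose. Noct, a circadian gene also called nocturnin whose protein removes a phosphate from NADPH, had 820, 407 and 511 in strained fascicles and 387, 211 and 195 in unstrained fascicles. It rose by 1.14 ± 0.29 without overlap, and unlike most called genes it was brightest in replicate 1 (adjusted p = 0.0412 with the block, limma). Pnrc1, a nuclear receptor coactivator, had 959, 801 and 1404 in strained fascicles and 650.0, 547 and 857 in unstrained fascicles. Its groups overlapped, with close differences of 0.56, 0.55 and 0.71 (mean 0.61; adjusted p = 0.0309 with the block, limma). The last was 1 probe without a gene name, at 125, 146 and 259 in strained and 73.1, 102 and 142 in unstrained fascicles (mean difference 0.72; adjusted p = 0.0412 with the block, limma).

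**Figure D2:**
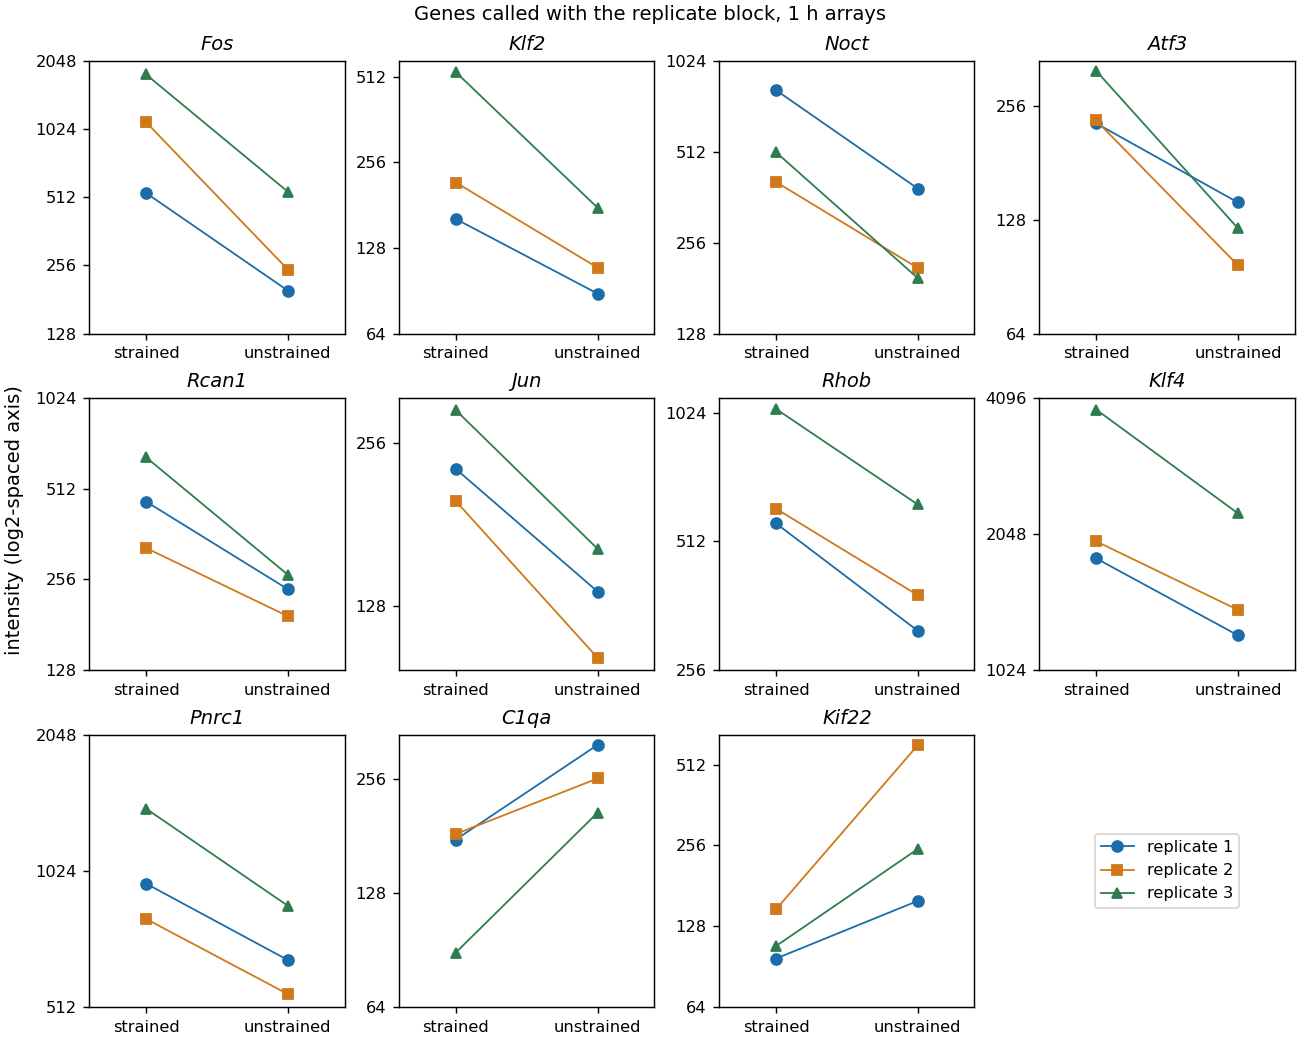
Intensity on a log2-spaced axis for the 11 named genes called with the replicate block, with strained arrays on the left and unstrained arrays on the right of each panel, and a line joining arrays of the same number. The lines fall from strained to unstrained in the first 9 panels and climb in C1qa and Kif22, and replicate 3 is the highest strained and the highest unstrained array in Fos, Klf2, Rcan1, Jun, Rhob, Klf4 and Pnrc1.

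Promoter sequences were printed for Rcan1, Rhob and Noct, called genes of different roles, and for Dusp1, the next early response gene by adjusted p, so that they can be read beside these rises. They run from 250 bases before to 50 after the RefSeq gene start in assembly GRCr8, and 6 of the 11 named called genes had one in the table used. Capitals mark matches to the cAMP response element (CRE, TGACGTCA), its half-site (TGACG), the AP-1 site (TGANTCA) and the GC box (GGGCGG), on either strand; the half-site lies within the CRE, and the CArG box was also searched. Rcan1 lies at chr11:45118187-45118486 on the minus strand, Rhob at chr6:37085155-37085454 on the minus strand, Noct at chr2:137421824-137422123 on the plus strand and Dusp1 at chr10:17184603-17184902 on the plus strand.
Rcan1: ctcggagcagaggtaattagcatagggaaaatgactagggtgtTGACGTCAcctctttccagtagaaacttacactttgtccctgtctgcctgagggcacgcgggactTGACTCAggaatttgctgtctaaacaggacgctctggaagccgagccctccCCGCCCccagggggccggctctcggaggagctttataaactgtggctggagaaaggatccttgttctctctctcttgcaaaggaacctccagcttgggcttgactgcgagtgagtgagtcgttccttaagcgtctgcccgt
Rhob: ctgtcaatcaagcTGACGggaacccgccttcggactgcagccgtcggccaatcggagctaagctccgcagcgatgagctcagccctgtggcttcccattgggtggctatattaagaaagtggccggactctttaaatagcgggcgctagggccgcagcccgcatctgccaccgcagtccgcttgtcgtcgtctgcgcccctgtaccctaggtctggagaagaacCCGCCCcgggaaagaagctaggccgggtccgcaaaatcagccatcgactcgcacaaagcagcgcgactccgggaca
Noct: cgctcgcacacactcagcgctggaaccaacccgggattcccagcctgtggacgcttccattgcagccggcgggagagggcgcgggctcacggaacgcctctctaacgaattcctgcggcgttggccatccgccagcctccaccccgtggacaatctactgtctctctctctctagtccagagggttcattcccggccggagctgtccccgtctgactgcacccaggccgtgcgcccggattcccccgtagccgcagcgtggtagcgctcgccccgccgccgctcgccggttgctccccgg
Dusp1: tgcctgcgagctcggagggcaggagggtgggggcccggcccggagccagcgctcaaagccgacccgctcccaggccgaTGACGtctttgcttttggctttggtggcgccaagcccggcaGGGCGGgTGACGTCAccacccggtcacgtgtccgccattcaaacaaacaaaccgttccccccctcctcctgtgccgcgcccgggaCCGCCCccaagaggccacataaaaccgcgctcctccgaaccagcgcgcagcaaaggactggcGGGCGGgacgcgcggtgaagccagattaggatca

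The Rcan1 promoter holds a CRE that begins at position -207 from the start, an AP-1 site at -142 and a GC box at -91. Dusp1 holds a CRE at -124, a further half-site at -172 and GC boxes at -131, -46 and 17. Rhob holds a half-site at -237 and a GC box at -26, and Noct holds none of the motifs searched. Of the other called genes with a promoter in the table, Klf4 and Kif22 hold none either, and C1qa, which fell, holds a half-site at -33. Dusp1 was not called with the block at 1 h. A CRE was found in 1.83% of all 33469 promoters in the table and in 3.17% of the 6806 promoters of kept genes. The AP-1 site was found in 7.33% and 5.32% of these, the half-site in 21.2% and 32.0%, the GC box in 33.1% and 59.0%, and the CArG box in 1.64% and 1.22%. Such a match describes the letters in the window and does not show that a factor binds there.

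The lists of MAP kinase feedback and of NF-kB feedback and mRNA decay lay mostly above 0, with no member called with the block at 1 h. Dusp1, a nuclear phosphatase that switches off MAP kinases, had 3659.5, 3572 and 4037 in strained fascicles and 1853, 2220.3 and 2675 in unstrained fascicles. The groups were far apart, and the difference of 0.75 ± 0.14 did not pass with the block at 1 h (adjusted p = 0.0570) but passed with a block within each time (0.0241) and with the 6 arrays alone and the block (0.0260, limma). Of 17 kept MAP kinase phosphatases and other kinase feedback genes, 14 lay above 0, at a median of 0.20. In pair 2 that median was 0.00, beside 0.14 in pair 1 and 0.28 in pair 3. Of 13 kept genes of NF-kB feedback and mRNA decay, 12 lay above 0, at a median of 0.33 and at 0.42, 0.20 and 0.21 in the pairs. That list also holds genes of NF-kB subunits. Of its inhibitor genes, Nfkbia and Nfkbib differed by less than their standard errors. A further inhibitor gene, Nfkbie, was at 0.33 ± 0.09 with groups apart, and did not pass (adjusted p = 0.301 with the block at 1 h, limma).

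In that NF-kB list, 9 of 13 were higher in every pair, beside 15.1% of all kept probes, and 5 of 13 had all strained arrays above all unstrained ones, beside 3.91%. Nfkbiz, a nuclear inhibitor-like cofactor of NF-kB, had 90.2, 81.6 and 84.1 in strained fascicles and 61.2, 54.1 and 60.0 in unstrained fascicles, with differences of 0.56, 0.59 and 0.49. Zfp36, which binds AU-rich elements and speeds the decay of cytokine mRNAs, had 1428, 1195 and 2220.3 in strained fascicles and 1026, 727 and 1004 in unstrained fascicles. Zc3h12a, an RNase that degrades inflammatory mRNAs, had 133, 88.0 and 123 in strained and 72.5, 84.4 and 85.3 in unstrained fascicles. All 3 had groups apart and none passed, at 0.55, 0.78 and 0.49 (adjusted p = 0.137, 0.301 and 0.278 with the block, limma). With the 6 arrays alone and the block, Zfp36 had an adjusted p of 0.0496.

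Among secreted signals, Hbegf, a membrane-shed ligand of the EGF receptor, had the largest difference of the EGF list. It had 984, 854 and 1946 in strained fascicles and 602, 410.5 and 653 in unstrained fascicles, without overlap. The difference of 1.11 ± 0.29 did not pass with the block at 1 h (adjusted p = 0.0869), but passed with a block within each time (0.0464) and with the 6 arrays alone and the block (0.0168, limma). The median over the 10 kept EGF ligands and receptors was 0.03. Il6 and Ptgs2, the inducible cyclooxygenase of prostaglandin synthesis, are often followed in loaded tendon. Il6 had 1231, 598 and 277 in strained fascicles and 526, 243 and 251 in unstrained fascicles, a difference of 1.23 and 1.30 in pairs 1 and 2 and of 0.14 in pair 3. Ptgs2 had 4547, 2505 and 5391 in strained fascicles and 2663, 1685 and 2360 in unstrained fascicles, with 0.77, 0.57 and 1.19 in the pairs. Both overlapped between groups, and neither passed (adjusted p = 0.726 and 0.221 with the block at 1 h, limma). With the 6 arrays alone and the block, Ptgs2 had an adjusted p of 0.0268. The 16 kept cytokines and chemokines were split, 9 above 0, at a median of 0.03.

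No matrix gene was called with the block at 1 h. Col1a1, the main collagen chain of tendon, had 2413, 7469 and 11930 in strained fascicles and 1342, 6717 and 11930 in unstrained fascicles. Its level followed the replicate number far more than strain: the pairs differed by 0.85, 0.15 and 0.00, and the mean was 0.33 ± 0.84. The 0.00 lies between 2 values of 11930, which Dcn also had in strained replicate 2. Bright values recur exactly across genes and arrays, so a difference of 0.00 between them does not show that the RNA was equal. Col3a1, a fibrillar collagen prominent in young and healing tendon, had 261, 538 and 875 in strained fascicles and 253, 713 and 937 in unstrained fascicles, at -0.15. The 9 kept fibrillar and tendon collagens had a median of 0.06, and the 21 kept matrix proteinases one of -0.04, with 7 above 0. Mmp3, a stromelysin that degrades matrix proteins, had 11066, 7155 and 8675 in strained and 9511, 5189 and 6717 in unstrained fascicles. Its inhibitor gene Timp1 had 10294, 8675 and 7962 in strained and 10294, 5989.6 and 5989.6 in unstrained fascicles; these differences of 0.35 and 0.32 did not pass. Mmp13, a collagenase, was near the floor of the array at 50.1 to 54.2 in strained and 47.8 to 58.9 in unstrained fascicles. Aspn, the small leucine-rich proteoglycan asporin, was lower in every pair, with 128, 206 and 116 in strained and 184, 427 and 232 in unstrained fascicles, and the groups overlapped. Its difference of -0.86 ± 0.34 had an adjusted p of 0.350 with the block at 1 h, 0.0235 with a block within each time and 0.0236 with the 6 arrays alone and the block (limma).

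Lists of stress and cytoskeletal genes had small medians that were uneven across pairs. The 19 kept genes of endoplasmic reticulum stress had 17 above 0 at a median of 0.13, which was 0.01 in pair 1, 0.09 in pair 2 and 0.34 in pair 3. The 13 kept heat shock genes had 11 above 0 and medians of 0.03, 0.06 and 0.30 in the pairs. Targets of YAP, a coactivator known to respond to cell tension, had medians of 0.21, 0.02 and 0.38 over 9 kept genes. Actin cytoskeleton and SRF targets had a median of 0.05 over 17 genes and 10 above 0, close to the 49.3% of all kept genes. In the other direction, 23 of 27 kept oxidative phosphorylation genes lay below 0, at a small median of -0.08 that was -0.14, -0.07 and -0.13 in the pairs. No member of these 5 lists was called.

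**Figure D3:**
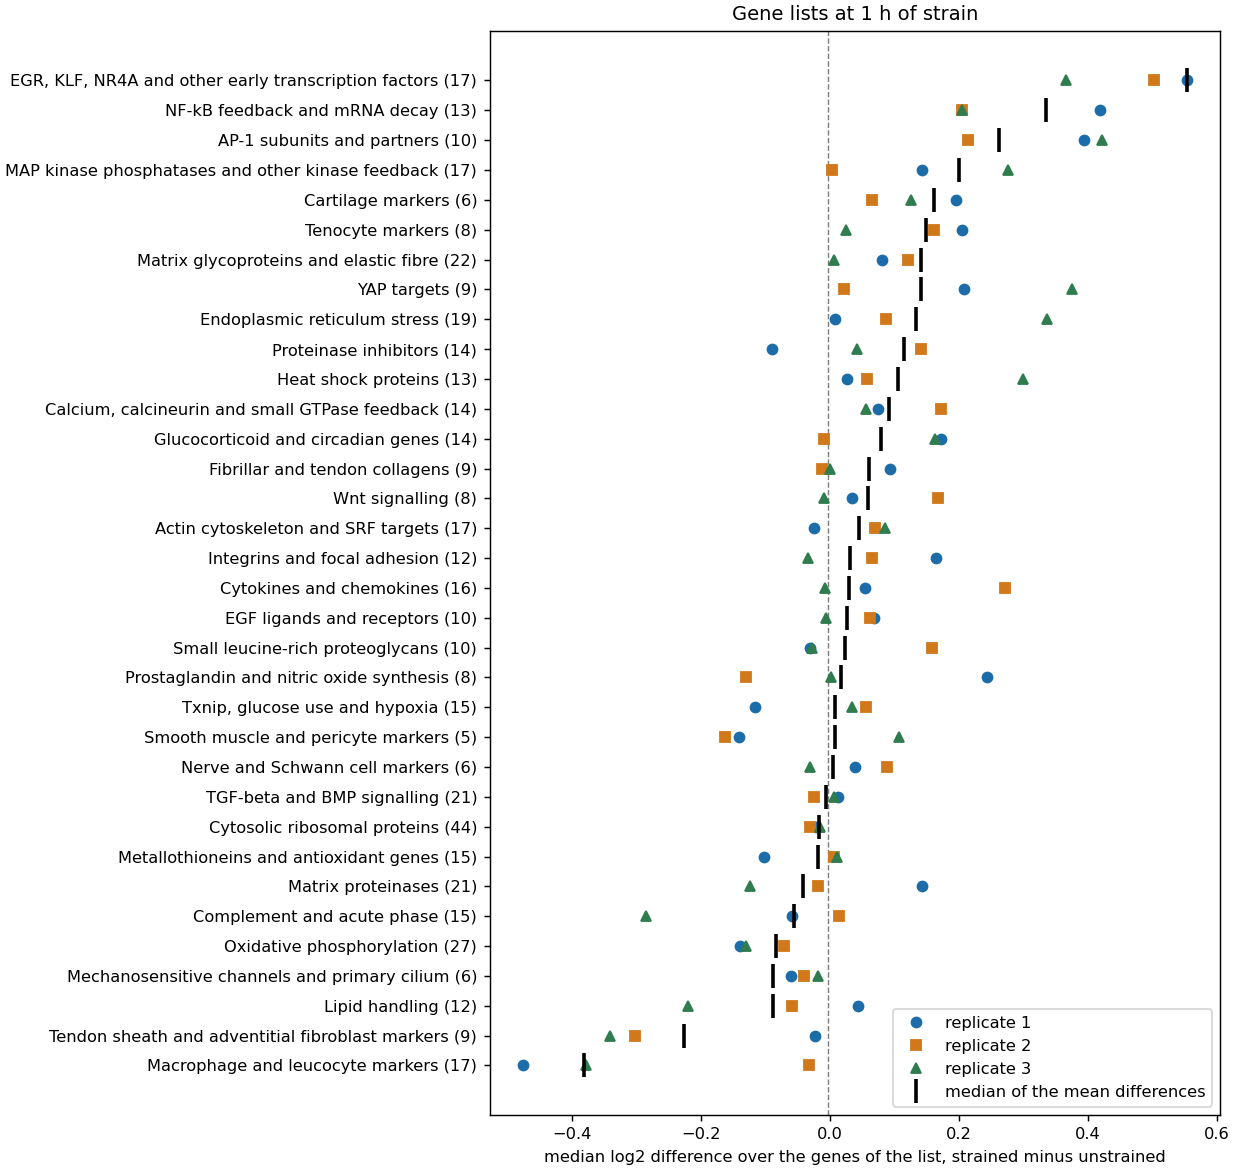
Median log2 difference (strained minus unstrained at 1 h) over the kept genes of each list with at least 5 of them, whose number stands in brackets: coloured points are the 3 pairs of equal number and the black bar is the median of the mean differences. The list of EGR, KLF and NR4A factors lies highest at 0.55, and the macrophage and leucocyte markers lie lowest at -0.38.

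C1qa, a chain of the complement protein C1q made mainly by macrophages, was the first of the 2 named genes that fell. It had 177, 183 and 89.1 in strained fascicles and 315, 257 and 209 in unstrained fascicles, without overlap. The pairs differed by -0.83, -0.49 and -1.23, and the mean of -0.85 ± 0.23 is 1.80-fold lower (adjusted p = 0.0356 with the block, limma). Its partner chains C1qc and C1qb had differences of -0.62 and -0.49, with groups apart and lower in each case, as were 3.90% of all kept probes, and did not pass (adjusted p = 0.0891 and 0.602 with the block, limma). In bulk samples, fewer macrophages and less of this RNA in each cannot be told apart.

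C1qa was the only one of 17 kept macrophage and leucocyte markers that was called. Of 23 listed, 17 were kept and 15 of these lay below 0, at a median of -0.38 and of -0.48, -0.03 and -0.38 in the pairs; Ptprc, Mpeg1 and S100a9 were below the filter. In 7 of the 17 the strained array was lower in every pair, beside 14.8% of all kept probes. Their summed intensity was 4803, 4567 and 2824 in strained fascicles and 6985, 4672 and 4219 in unstrained fascicles, so the sums were lower in each pair but overlapped between groups. In 13 of the 17 the brightest of the 6 arrays was unstrained replicate 1, beside 16.4% of all kept genes. The part of cell number in these differences was not tested.

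Kif22, a kinesin that binds chromosome arms in dividing cells, had the largest fall among called genes. It had 97.0, 148 and 108 in strained fascicles and 159, 606 and 248 in unstrained fascicles, without overlap. The mean difference of -1.32 ± 0.36 is 2.49-fold lower (adjusted p = 0.0481 with the block, limma), and unstrained replicate 2 weighed heavily in it. The pairs differed by -0.71, -2.03 and -1.20, and without unstrained replicate 2 the mean was -0.78.

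That array was also the brightest for Pi16, Col14a1 and Cd248. Pi16, a marker of adventitial fibroblasts, had 85.7, 153 and 132 in strained fascicles and 160, 865 and 503 in unstrained fascicles. Its difference of -1.77 ± 0.50 was the lowest of the genes described, and it did not pass with the block at 1 h (adjusted p = 0.0717). It passed with a block within each time (0.0433), with the 6 arrays alone and the block (0.0157) and, with no block, without unstrained replicate 1 (0.00609, limma). A second probe of the gene had -0.70, with 0.12, -1.17 and -1.04 in the pairs. Col14a1, a collagen that binds fibril surfaces, had 110, 161 and 172 in strained fascicles and 148, 680 and 385 in unstrained fascicles. Cd248, a stromal glycoprotein, had 85.6, 125 and 99.9 in strained fascicles and 86.9, 468 and 183 in unstrained fascicles. As in Kif22, the difference was largest in pair 2 and smallest in pair 1 for all 3 of these genes.

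Of the 9 kept tendon sheath and adventitial markers, which include Pi16 and Cd248 but not Col14a1, 7 lay below 0, Prg4 was at 0.00 and Has1 at 0.36, at a median of -0.23 and of -0.02, -0.30 and -0.34 in the pairs. Their summed intensity was 19075, 16476 and 16295 in strained and 18558, 18015 and 17341 in unstrained fascicles. Pi16 and Cd248 reached at most 865 and 468 on the arrays of 1 h, so these sums say little about them. Tppp3, a tubulin-binding protein that marks sheath cells, had 81.3, 83.9 and 83.8 in strained and 123, 141 and 118 in unstrained fascicles, apart by -0.61 ± 0.11 (adjusted p = 0.0677 with the block at 1 h, limma). For 5 of these 9 genes the brightest array was unstrained replicate 2, as it was for 17.6% of all kept genes, and for 3 it was strained replicate 1. Whether sheath tissue carried along with that sample plays a part in these differences was not tested.

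None of the 10 named genes of smallest p below 0 passed without the block or with the block at 1 h. They were Tppp3, Lpl, Fbxl20, Gas7, Pdlim1, Aqp1, Qpct, Tnnt3, F13a1 and Tiam1, with differences between -0.95 and -0.47. With a block within each time, Tppp3 and Gas7 passed (adjusted p = 0.0272 each), and with the 6 arrays alone and the block, Lpl (0.0405), Gas7 (0.0385) and Tppp3 (0.0496) did (limma). Lpl, the lipase that releases fatty acids from lipoproteins, had 150, 133 and 99.5 in strained and 201, 323 and 221 in unstrained fascicles. Aqp1, a water channel of endothelium and other cells, had 160, 129 and 217 in strained and 235, 374 and 260.0 in unstrained fascicles. In 8 of these 10 genes unstrained replicate 2 was the brightest array, beside 40.4% of the 287 genes whose strained arrays all lay below the unstrained ones. Txnip, an inhibitor of thioredoxin and of glucose uptake, was steadier across pairs: it had 682, 1136 and 634 in strained and 1316, 1912 and 1223 in unstrained fascicles. Its differences of -0.95, -0.75 and -0.95 had an adjusted p of 0.0540 with the block at 1 h, 0.0400 with a block within each time and 0.0115 with the 6 arrays alone and the block (limma). Id1, a BMP-induced inhibitor of bHLH factors, was at -0.68, -0.59 and -1.06 in the pairs (adjusted p = 0.0540, 0.0263 and 0.0268 in the same fits).

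**Figure D4:**
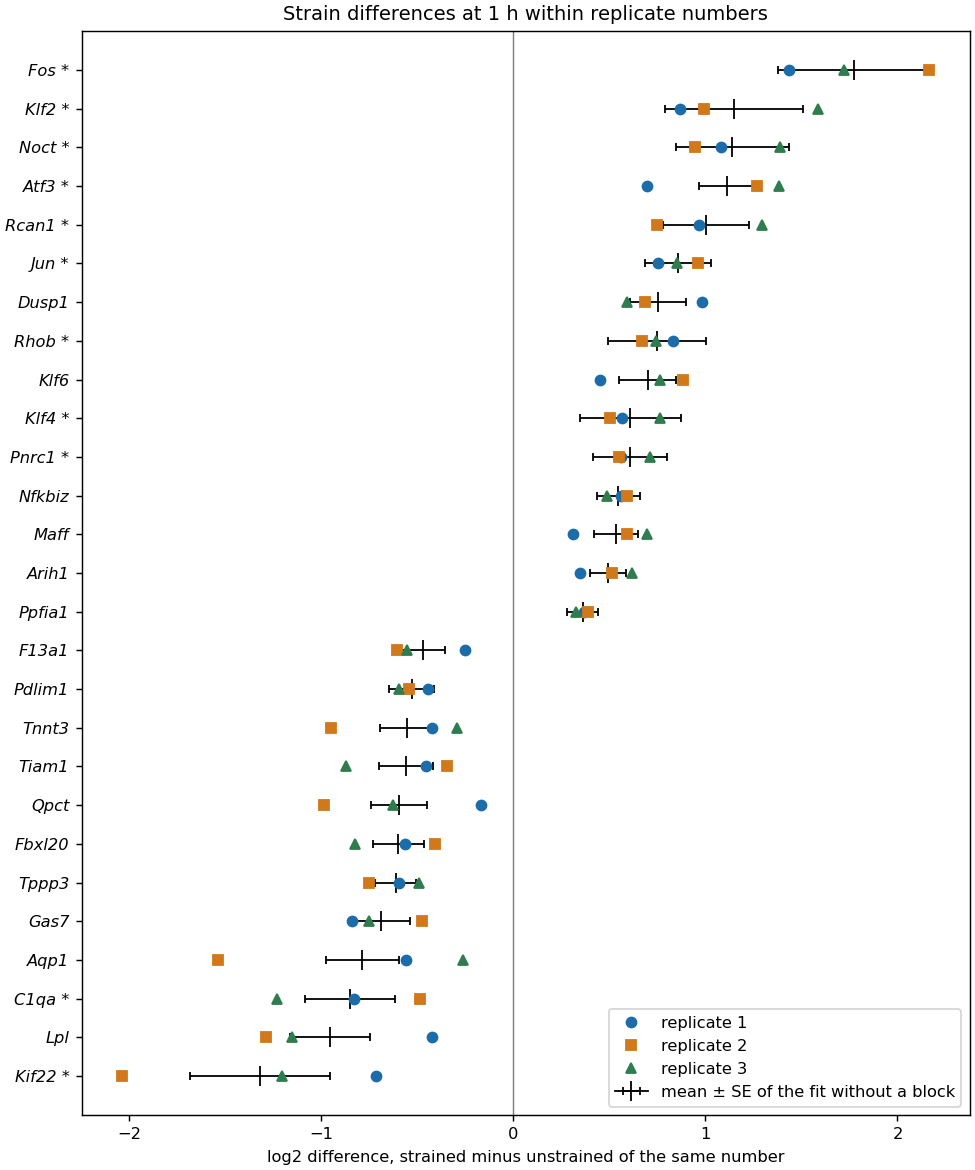
Log2 differences (strained minus unstrained array of the same number) for the 11 named called genes, marked with an asterisk, and for further named genes of smallest p in either direction; coloured points are the 3 pairs, and the bar is the mean with its standard error without the block. All 3 points lie on the same side of 0 for each gene shown, and the spread over pairs is widest in Kif22 and Aqp1, with pair 2 the lowest in both.

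The 3 pairs did not carry equal weight. Over all kept probes the standard deviation of the difference was 0.222 in pair 1, 0.213 in pair 2 and 0.276 in pair 3. Probes at least 2-fold higher numbered 7, 8 and 25, and those at least 2-fold lower 9, 26 and 30, in pairs 1, 2 and 3. Of the 12 called probes, the difference was largest in size in pair 3 for 8, in pair 2 for 3 and in pair 1 for 1. Fos alone stayed called whichever pair was left out. Without pair 2 or without pair 3, limma with the block called 1 probe, and without pair 1 it called 23, of which 18 were lower and 5 were among the 12. Those 23 included Lpl, Col14a1 and Cd248 at -1.22, -1.62 and -1.39; without pair 2 they were at -0.79, -0.80 and -0.45 and were not called.

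Some genes moved in opposite directions in different pairs. Ccl4, a macrophage chemokine, differed by -1.06, 1.22 and 0.27, and the inflammatory cytokine gene Il1b by -1.09, 0.92 and -0.14. Ch25h, an interferon-induced cholesterol hydroxylase, differed by -1.60, 0.45 and 0.06. In all 3 the brightest array was unstrained replicate 1, with 596 for Ccl4, 1326 for Il1b and 410 for Ch25h, against 286, 623 and 136 in strained replicate 1. Ccl12, a monocyte chemoattractant, was lower in every pair but by unequal amounts: it had 231, 357 and 62.7 in strained and 1591, 463 and 117 in unstrained fascicles. Cyp26b1, which breaks down retinoic acid, differed by 0.85, -1.65 and -0.39, and unstrained replicate 2 was its brightest array at 245.

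Other probes differed strongly between replicate numbers and little with strain. A probe for the ribosomal protein gene Rps9 had 74.2, 63.3 and 1091 in strained fascicles and 81.1, 64.3 and 906 in unstrained fascicles, so it was bright only in replicate 3. Rnd1, Lcn2, an acute phase protein that binds siderophores, and Chi3l1, a chitinase-like glycoprotein, were bright in replicate 1. Lcn2 had 824, 121 and 64.7 in strained and 523, 102 and 93.5 in unstrained fascicles. Gbp2, an interferon-induced GTPase, and the chemokine gene Cx3cl1 were also highest in replicate 1 of both groups.

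Sparc, a collagen-binding matrix protein, ran the other way, with 2283, 4407 and 10294 in strained and 1825, 3790 and 7787 in unstrained fascicles, in the same order of numbers as Col1a1 and Col3a1. The mitochondrial ribosomal gene Mrpl18 had 233, 58.1 and 432 in strained and 221, 57.0 and 459 in unstrained fascicles, and was dim only in replicate 2. RT1-A2, a class I histocompatibility gene, had 59.6, 50.3 and 364 in strained and 53.9, 65.8 and 419 in unstrained fascicles. In all, 50 named probes had pair means more than 1 log2 unit apart with each strain difference under 25% of that range. Numbers at 24 h need not be those of 1 h: the Rps9 probe had 1058, 72.9 and 1524 in strained and 1136, 73.3 and 1648 in unstrained fascicles at 24 h, bright in replicates 1 and 3.

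**Figure D5:**
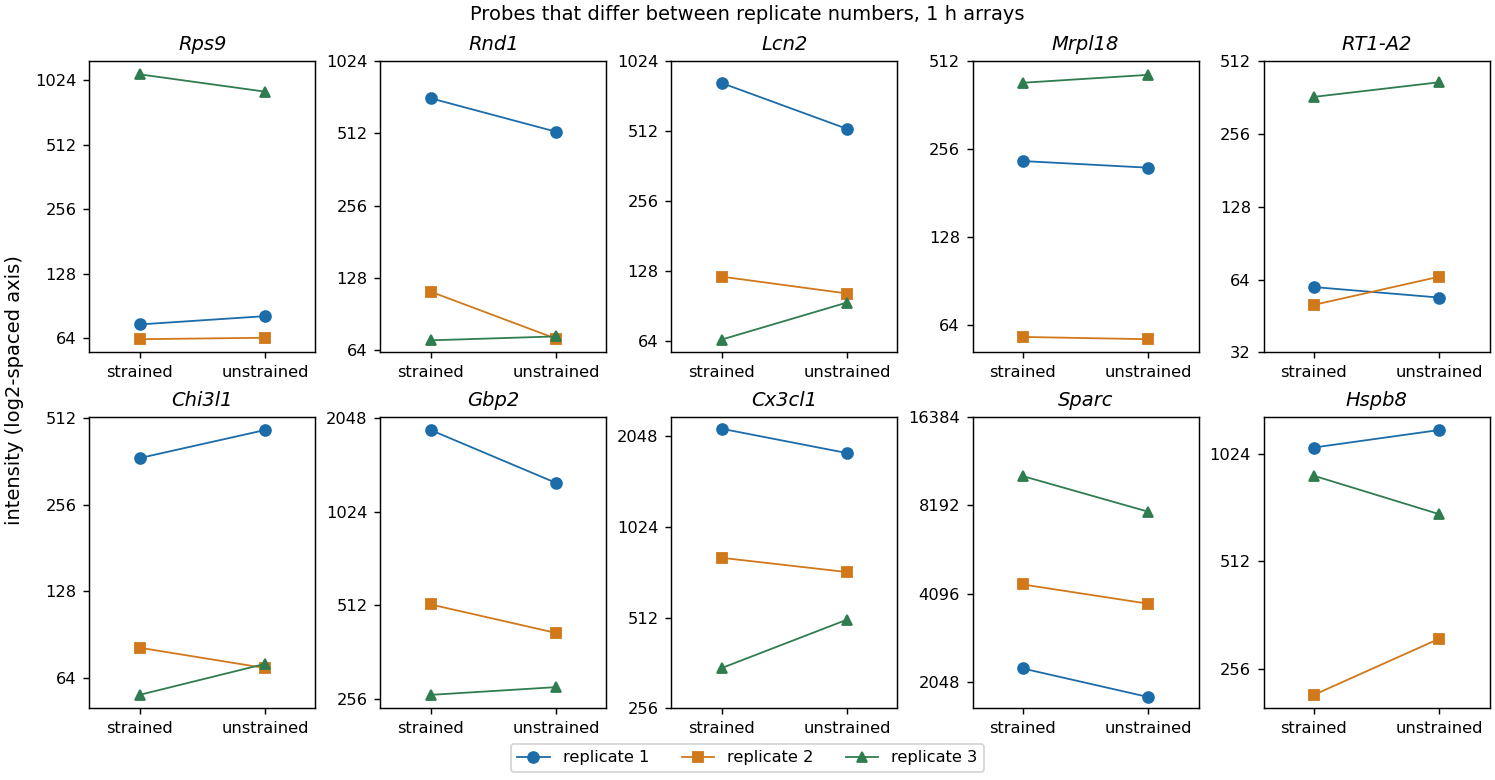
Intensity on a log2-spaced axis for 10 probes with a wide range between replicate numbers and small differences with strain, with strained arrays on the left, unstrained arrays on the right and a line joining arrays of the same number. At least 1 number runs at a separate height in each panel, as for Rps9, at 1091 and 906 in replicate 3 and at 63.3 to 81.1 in the others. In Rnd1, Chi3l1 and RT1-A2 the lines of the other numbers cross.

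Across all kept probes, 30.0% had the same sign in all 3 pairs (95% exact Clopper-Pearson interval 29.1% to 30.8%, which treats probes as separate although they share arrays). Of the 12 called probes, 9 kept the same order of numbers in strained and unstrained fascicles, as did 29.0% of all kept probes. In 6 of the 12 the groups were apart without regard to number: Noct, Atf3, Rcan1 and Jun above, C1qa and Kif22 below. Over all kept probes, 3.91% were apart above and 3.90% below. The 12 were called on this same difference, so the count of 6 is no separate support for them.

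The strain effect at 24 h, measured on other samples, was lower than at 1 h for Fos, Atf3 and Pnrc1 by a test of the difference with the block at 1 h. The difference of effects, 24 h minus 1 h, was past the test for 9 of 11258 probes (0.0799%) without the block and for 80 (0.711%) with the block at 1 h. The strain difference of Fos was -0.12 at 24 h and 1.77 at 1 h, a change of -1.89 (adjusted p = 0.296 without the block and 4.98e-04 with it, limma). Atf3 was at -0.09 at 24 h and 1.12 at 1 h, and Pnrc1 at -0.35 at 24 h and 0.61 at 1 h (adjusted p = 0.0106 and 0.00514 for the change with the block, limma). Kif22 turned the other way, at 0.65 at 24 h and -1.32 at 1 h (adjusted p = 0.0123 for the change with the block, limma). For Jun, Klf2, Klf4, Noct, Rcan1, Rhob and C1qa the change did not pass with or without the block. Nfil3, a bZIP factor of the circadian clock, was at -1.09 at 24 h and 0.44 at 1 h, and passed without the block as well (adjusted p = 0.00974, limma).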

How the data were processed

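RNA was hybridised to Illumina rat bead arrays, 1 array for each of 12 samples. The authors deposited normalized intensity values on a linear scale for 22517 probes; equal medians on all arrays fit a between-array normalization. The sources used here name no software, background correction or annotation build. Another deposited table numbers its 24 per-sample columns without naming samples, and these were not used. Groups came from the sample titles.

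Intensities were taken as log2 with no further correction. The upper 50% of probes by mean were kept (11258; dimmest mean 56.2). The platform annotation gives 1 gene symbol for 13787 probes, several for 0 and none for 8730; matched by Entrez identifier to RefSeq (GRCr8), 0 changed. A gene with several kept probes is represented by the brightest, and Pi16 was the only gene named with values that has a further one.

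Tests were made in R 4.3.3 with limma 3.58.1 (lmFit with eBayes; two-sided, Benjamini-Hochberg under 0.05 over all kept probes) fitted 4 group means over 12 arrays. Precision is limited by the number of arrays, with a median standard error of 0.121 when no block was used. No label states a pairing. Same-numbered arrays at 1 h deviated together from their group means (correlations 0.604, 0.537 and 0.521, each above the set limit of 0.1), so the number was accepted as a pair from this check of the data. At 24 h the correlations were 0.0387, 0.309 and 0.388, and the number was not blocked there. The median standard error with the block at 1 h was 0.107.

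Genes were named if called with the block, if among the 10 of smallest p per direction without it, if among the 4 of smallest p of a list, if in a fixed set, or if extreme in spread over pairs or in range between numbers. The 39 lists held 705 symbols, of which 581 were on the array and 476 kept. The comparison, lists and rules were chosen with earlier results of these data known, and no list was tested. The counts of brightest arrays were added after values were seen. Alternatives were blocks, the filter, an offset of 50, cyclic loess, a variance trend with robust estimation, array weights, the 6 arrays alone and leaving out arrays or pairs. Figures used matplotlib 3.10.9 in Python 3.11.15.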

Additional observations from a re-analysis of the deposited data

Results flagged for a closer look

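For 10 of the genes named in the text, the strain effect differed between the times by a test of the difference itself (limma, 24 h minus 1 h, log2 scale), and for 8 of them the effect was lower at 24 h. Only Nfil3 passed without a block, at -1.54 (adjusted p = 0.00974; 0.00559 with the replicate block at 1 h). With the block at 1 h the change was -1.89 for Fos (adjusted p = 4.98e-04), -1.21 for Atf3 (0.0106), -0.96 for Pnrc1 (0.00514) and -1.77 for Gem (0.0440). It was -2.98 for Chi3l1 (0.0290), -2.46 for Lcn2 (0.0113) and -1.18 for Mmp13 (0.0423), genes whose strain difference at 1 h was small, at -0.15 for Chi3l1, 0.12 for Lcn2 and -0.04 for Mmp13. The effect was higher at 24 h for Kif22, by 1.96 (adjusted p = 0.0123), and for Id1, by 1.24 (0.0108). Without the block these 9 had adjusted p between 0.0771 and 0.622.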

How the results depend on the processing

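Calls at 1 h depended on the replicate block. Without it limma called 0 probes. It also called 0 without the filter, with the upper 25% of probes, with an offset of 50, with cyclic loess, with array weights and with the 6 arrays alone. A variance trend with robust estimation called 1, Atf3. Leaving out 1 array gave 0 to 2. With the block at 1 h limma called 12, with a block within each time 23, and with the block and the 6 arrays alone 32. With 1 block shared by both times it called 0, so none of the 12 was kept. With the block at 1 h and 1 pair left out it called 1 to 23. Alternatives joined to the block after the data were seen gave 23 without the filter, 12 in the upper 25%, 8 with an offset of 50, 13 with cyclic loess, 23 with the trend and 15 with array weights. The share of probes with 1 sign in all pairs was 30.0%, 27.3% without the filter and 34.4% in the upper 25%. Named genes whose strain effect differed between the times numbered 1, 10 with the block at 1 h and 16 with a block within each time, and 1 to 2 with an array left out. Genes named only for their spread over pairs or range between numbers were not counted in what follows. Some of them, such as Mrpl18 and Sparc, also change sign with 1 array left out. Among the other named genes, 11 of 2022 alternative values changed sign, with arrays or pairs left out. Col1a1 ranged from -0.58 to 1.00, Col3a1 from -0.72 to 0.31, and Egr1 from -0.13 to 0.41 with arrays and from -0.18 to 0.51 with pairs. Mmp13 ranged from -0.12 to 0.0332 with arrays and from -0.09 to 0.0336 with pairs, and Tnmd from -0.13 to 0.45. The other values counted kept their direction, with 151 past the threshold. Of the 12 probes called with the block at 1 h, all but Fos were lost without pair 2 or without pair 3, and Klf4 with the 6 arrays alone (adjusted p = 0.0513). The cause was not tested. Dim probes limit what can be measured, since a background remains in the intensities. At the bright end the same values recur across genes and arrays, so a difference of 0.00 there does not show equal RNA.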
